A study of Mus musculus with 6 samples.

Results

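The EGR, NR4A and early feedback genes are 10 genes, most of them switched on within minutes to hours of a signal: Egr1, Egr2, Egr3, Nr4a1, Nr4a2, Nr4a3, Ier2, Dusp1, Zfp36 and Zfp36l2. They were chosen by symbol among 16805 genes tested, out of 65528 transcript clusters on the array, and each of the 10 has 1 cluster that carries no other gene's name. All 10 were above the median of their array on 6 of 6 arrays, so the intensity filter removed none. The arrays hold total RNA of CD4+ CD25+ cells, which carry the surface markers of regulatory T cells (Treg cells), taken from mouse spleens by magnetic separation with no treatment of the mice. Keap1_KO (replicates B, C and D) are mice with a floxed Keap1 gene and the VAVcre transgene, labelled Keap1 -/-, and WT (replicates A, D and F) are labelled Keap1 +/+, both male on the C57BL/6 background. Vav-driven Cre acts in blood-forming cells and their descendants, so other cells of the spleen carry the deletion too, and the labels do not say whether WT mice carry Cre or the floxed allele. For the age the labels hold 2 entries, 10 to 12 months among the characteristics and, in the growth protocol, 6 to 10 weeks. Whether the arrays come from separate mice is not stated, so p-values refer to the spread of these arrays, which may be technical in part.

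Early response genes need no new protein for their induction, since the factors that switch them on are already in the cell. In T cells, antigen receptor signalling through calcium and the ERK kinases induces the EGR zinc finger factors and the NR4A orphan nuclear receptors, and Treg cells, which meet self antigen, are known for steady expression of Nr4a1. Ier2, Dusp1 and Zfp36 respond to receptor signals as well, and also to growth factors, oxidants and the handling of cells during tissue dissociation, so they are often counted among the genes of isolation stress. Dusp1 and Zfp36 are brakes, the first a phosphatase of MAP kinases and the second an RNA-binding protein that sends AU-rich mRNAs to decay. Receptor-linked and isolation-linked members are set side by side here in cells from which Keap1, which targets the oxidant-responsive factor NRF2 for degradation, was deleted.

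Values are the deposited log2 RMA values (a normalized probe summary), group values are mean ± SD over 3 arrays, and differences are Keap1_KO minus WT on that scale. Where 3 values stand for a group, WT replicates come in the order A, D, F and Keap1_KO replicates in the order B, C, D. The targeted gene Keap1 read 5.30, 5.41 and 5.77 in WT and 4.87, 4.89 and 4.70 in Keap1_KO, lower on each Keap1_KO array, although it lay near the array median and probes outside the floxed part would not report its loss. Cd4 and Il2ra, the genes of the 2 surface proteins used for isolation, were above the array median on 6 of 6 arrays. Foxp3 has no cluster of its own here. Across the 16805 genes the arrays correlated between 0.927 and 0.988. No gene passed an adjusted p of 0.05 in limma (0.00% of genes), while 10.3% had an unadjusted p under 0.05. That share was 27.3% without Keap1_KO B (5 of the 10 members) and 12.0% without WT D (4 of the 10 members). It was 3.40% without Keap1_KO C, 3.31% without Keap1_KO D, 4.84% without WT A and 5.59% without WT F. The mean was higher in Keap1_KO for 56.5% of genes, a share of 65.9% after repeated quantile normalization, 68.6% with each array centred on its median and 44.4% without the intensity filter. Centring also moved the median difference of all genes from 0.06 to 0.17, a shift of 0.11 that applies to each member below.

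The promoters of the members were compared first by their letters, since the EGR, NR4A and feedback genes are known for control through serum response factor at CArG boxes and through CREB at cyclic AMP elements. RefSeq windows on GRCm38.p6, from 250 bases before to 50 after each annotated start, were on hand for 6 members, as 10 windows, since Egr2 has several annotated starts. The stretches below hold matches found within these windows, for Egr2 from 1 of its starts. Each is written 5′ to 3′ on the strand of the gene, with the motifs named beside it in capitals. The Egr2 stretch ends within an antioxidant element and a cyclic AMP core, which are not marked there. All 6 of these members had a higher mean in Keap1_KO. The difference was 0.77 to 1.36 in Zfp36, Egr2, Nr4a1 and Dusp1, 0.22 in Nr4a2 and 0.10 in Nr4a3.
Zfp36, chr7:28379269-28379338, minus strand, EGR motif and CArG box: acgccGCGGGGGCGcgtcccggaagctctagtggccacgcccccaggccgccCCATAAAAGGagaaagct
Egr2, chr10:67537787-67537816, plus strand, CArG box: gttcctcagtCCATATATGGgcagcgacgt
Nr4a1, chr15:101266766-101266815, plus strand, cyclic AMP cores and EGR motif: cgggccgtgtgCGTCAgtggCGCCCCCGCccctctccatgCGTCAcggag
Dusp1, chr17:26508593-26508670, minus strand, cyclic AMP cores and antioxidant element: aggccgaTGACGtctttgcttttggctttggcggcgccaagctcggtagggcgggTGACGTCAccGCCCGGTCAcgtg
Nr4a2, chr2:57124064-57124133, minus strand, antioxidant element, cyclic AMP cores and EGR motif: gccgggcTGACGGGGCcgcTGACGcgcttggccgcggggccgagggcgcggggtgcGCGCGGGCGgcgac
Nr4a3, chr4:48045068-48045109, plus strand, antioxidant element and cyclic AMP cores: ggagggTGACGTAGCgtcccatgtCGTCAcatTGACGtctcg

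Both strands of each window were searched. A member was counted when any of its windows matched, while the shares are per window, so Egr2, with several windows, had more room to match. The CArG box stood in the windows of Zfp36 and Egr2 and in 1.63% of 32851 mouse promoter windows of this length. The full cyclic AMP element TGACGTCA stood in Dusp1 and in 1.79% of windows, and its core TGACG, which lies within it, in Dusp1, Egr2, Nr4a1, Nr4a2 and Nr4a3 and in 20.8% of windows. The EGR motif GCGNGGGCG, which the EGR proteins themselves bind, stood in Nr4a1, Nr4a2 and Zfp36 and in 5.55% of windows. The core of the antioxidant response element, TGACNNNGC, the motif read by NRF2, stood in Dusp1, Egr2, Nr4a2 and Nr4a3 and in 12.4% of windows, and in Egr2, Nr4a2 and Nr4a3 it overlapped a TGACG core. The AP-1 motif TGANTCA stood in 0 of the 6 members and in 7.81% of windows. The antioxidant core was not found in these windows of Zfp36 and Nr4a1. Any link between these motifs and the differences below was not tested. A match in letters is a description of the sequence and not a measured binding site.

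Of the 10 members, 8 had a higher mean in Keap1_KO, and Egr2 and Zfp36 were the 2 in which all Keap1_KO arrays lay above all WT arrays. Over all genes tested 9.11% had that order, so a count of 2 of 10 is by itself no result about the members. None of the members passed the limma adjusted threshold. At an unadjusted limma p under 0.05, Egr2 and Zfp36 were higher and 0 members lower in Keap1_KO, against 8.38% and 1.92% of all genes.

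**Figure D1:**
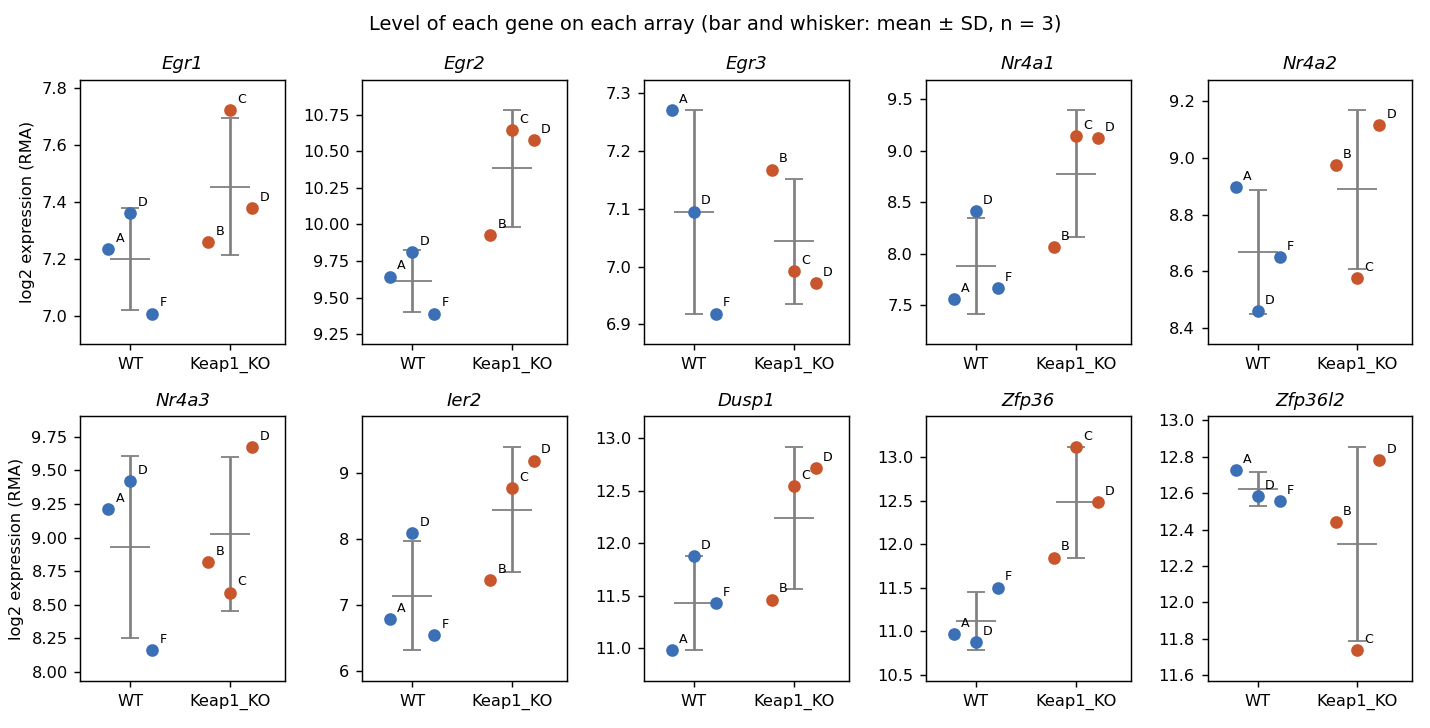
Log2 expression of the 10 genes on each array, with WT in blue and Keap1_KO in orange, replicate letters beside the points and mean ± SD (n = 3) in grey, each panel on its own vertical scale. For Egr2 and Zfp36 the Keap1_KO points lie above the WT points, for Egr1, Nr4a1, Ier2 and Dusp1 only Keap1_KO C and D do (D narrowly for Egr1), and Egr3, Nr4a2, Nr4a3 and Zfp36l2 are mixed.

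Among the EGR factors, Egr2 was the member whose groups separated. Egr2, which T cells induce after receptor signals and which restrains their activation, read 9.64, 9.81 and 9.39 in WT and 9.93, 10.65 and 10.58 in Keap1_KO. The lowest Keap1_KO array, B, stood just above the highest WT array, D, and Keap1_KO C and D stood clear of both. The difference was 0.77 (SE 0.25, 95% interval 0.17 to 1.37, 1.70-fold), with a limma adjusted p of 0.476 and an exact permutation p of 0.1, the smallest that 3 arrays against 3 allow.

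Egr1, the EGR factor most widely induced by growth signals, read 7.23, 7.36 and 7.01 in WT and 7.26, 7.72 and 7.38 in Keap1_KO. Keap1_KO C was the highest array, Keap1_KO D lay just above WT D and Keap1_KO B below it. The difference of 0.25 (95% interval -0.22 to 0.72, limma adjusted p = 0.578) was within the spread. Egr3, the partner of Egr2 in restraining activated T cells, read 7.27, 7.09 and 6.92 in WT and 7.17, 6.99 and 6.97 in Keap1_KO. Its groups overlapped in full, the difference was -0.05 (95% interval -0.46 to 0.36, limma adjusted p = 0.901), and its sign turned with quantile normalization (0.057) and with centring (0.061).

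Among the NR4A receptors, Nr4a1 had the largest mean difference, and its Keap1_KO B value lay within the WT range. Nr4a1 (NUR77), used as a reporter of receptor signal strength, read 7.56, 8.41 and 7.67 in WT and 8.07, 9.14 and 9.12 in Keap1_KO. WT D was the high array of its group and lay above Keap1_KO B, so the groups overlapped by that pair. The difference was 0.89 (SE 0.38, 95% interval -0.02 to 1.80, 1.86-fold), with a limma adjusted p of 0.476 and an exact permutation p of 0.2. Without Keap1_KO B it was 1.25 (limma adjusted p = 0.0737).

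The other two receptors did not follow Nr4a1. Nr4a2 (NURR1) read 8.90, 8.46 and 8.65 in WT and 8.97, 8.58 and 9.12 in Keap1_KO, so that Keap1_KO C, high for Nr4a1, was the low array of its group here. Its difference was 0.22 (95% interval -0.30 to 0.74, limma adjusted p = 0.643). Nr4a3 (NOR1) read 9.21, 9.42 and 8.16 in WT and 8.82, 8.59 and 9.67 in Keap1_KO, the widest WT spread of the 3 receptors. Its difference was 0.10 (95% interval -0.93 to 1.13, limma adjusted p = 0.928), and it became -0.29 without WT F and -0.23 without Keap1_KO D, so single arrays set its sign.

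The isolation-stress-linked members all had higher means in Keap1_KO, by more than most receptor-linked members. Zfp36 (tristetraprolin), which destabilises cytokine mRNAs, read 10.97, 10.88 and 11.50 in WT and 11.84, 13.11 and 12.48 in Keap1_KO. Each Keap1_KO array was above each WT array, with B nearest to the WT range and C farthest from it. The difference was 1.36 (SE 0.36, 95% interval 0.50 to 2.22, 2.57-fold), with a limma adjusted p of 0.476 and an exact permutation p of 0.1, and 3.11% of genes tested had a larger rise in mean. It was 1.68 without Keap1_KO B, and only in that leave-one-out fit did a member pass (limma adjusted p = 0.0482). There 575 of 16517 genes tested passed as well.

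Ier2, an early response nuclear protein, read 6.79, 8.08 and 6.54 in WT and 7.37, 8.77 and 9.18 in Keap1_KO. Keap1_KO C and D were high and B lay between WT D and the other WT arrays. The difference was 1.31 (SE 0.59, 95% interval -0.12 to 2.73, limma adjusted p = 0.478, exact permutation p = 0.2). Dusp1, the MAP kinase phosphatase also called MKP-1, read 10.98, 11.88 and 11.43 in WT and 11.46, 12.54 and 12.71 in Keap1_KO. It had the same order as Ier2 at its overlap, with Keap1_KO B below WT D. The difference was 0.81 (SE 0.40, 95% interval -0.14 to 1.76, limma adjusted p = 0.481, exact permutation p = 0.2), and 1.20 without Keap1_KO B.

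Zfp36l2, a relative of Zfp36 known from quiescent lymphocytes, was the member with the most negative difference. It read 12.73, 12.59 and 12.56 in WT and 12.44, 11.74 and 12.78 in Keap1_KO. The WT arrays lay close together, Keap1_KO C was low and Keap1_KO D was the highest of all 6. The difference was -0.30 (SE 0.28, 95% interval -0.99 to 0.38, limma adjusted p = 0.631), and -0.012 without Keap1_KO C, so it rested on that array.

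**Figure D2:**
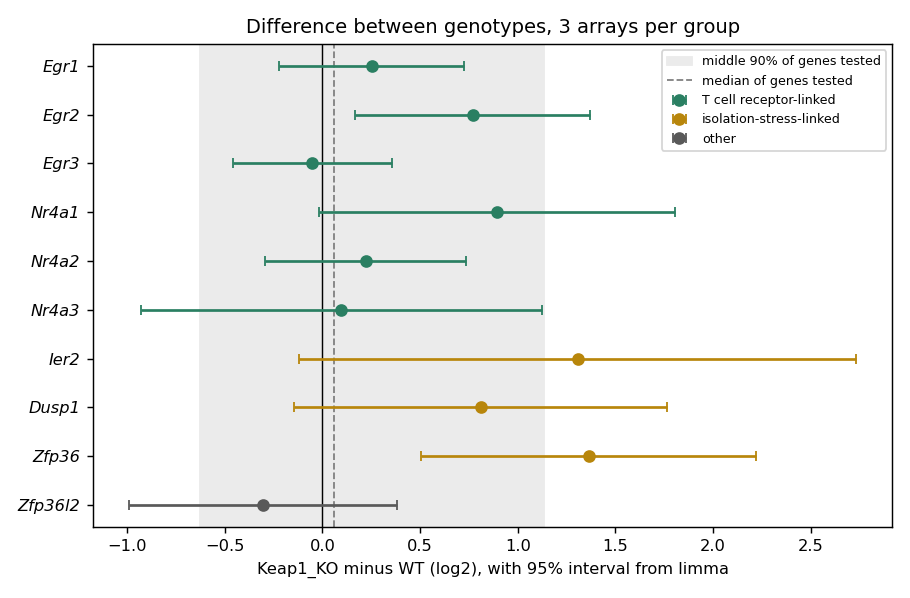
Keap1_KO minus WT (log2) for each gene with the 95% interval of the limma fit, coloured by kind of member, over a grey band that spans the middle 90% of the 16805 genes tested (-0.62 to 1.13) and a dashed line at their median (0.06). Zfp36 and Ier2 lie beyond the band, the intervals of Egr2 and Zfp36 lie above 0, and the other 8 intervals include 0.

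Grouped by their usual labels, the isolation-linked members had the larger median, while Egr2 and Nr4a1 lay with them. The median difference was 0.24 over the 6 receptor-linked members (5 with a higher mean) and 1.31 over the 3 isolation-linked members (3 with a higher mean), against 0.06 over all genes tested, and the medians were not tested against each other. Egr2 (0.77) and Nr4a1 (0.89) lay beside Dusp1 (0.81), while Egr1, Egr3, Nr4a2 and Nr4a3 lay between -0.05 and 0.25. Larger and smaller differences thus occurred within the EGR family and within the NR4A family.

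By array, the isolation-linked members deviated from their 6-array means by -0.89, -0.20 and -0.65 in WT and by -0.25, 1.001 and 0.99 in Keap1_KO. The receptor-linked members deviated by -0.11, 0.01 and -0.45 on the WT arrays and by -0.05, 0.20 and 0.39 on the Keap1_KO arrays. For both kinds, Keap1_KO B lay inside the WT range and Keap1_KO C and D above it. Keap1_KO C and D both exceeded all WT arrays in 6 of the 10 members, against 31.4% of genes tested, and Keap1_KO B lay below WT D in 6 of the 10, against 56.4% of genes tested. With limma array weights, which gave Keap1_KO B the lowest weight (0.352) and WT A the highest (3.37), 5 members passed the adjusted threshold. These were Egr2, Nr4a1, Ier2, Dusp1 and Zfp36, with limma adjusted p from 0.0408 to 0.0449. In that fit 1878 of 16805 genes tested passed, and 35.0% had an unadjusted p under 0.05.

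**Figure D3:**
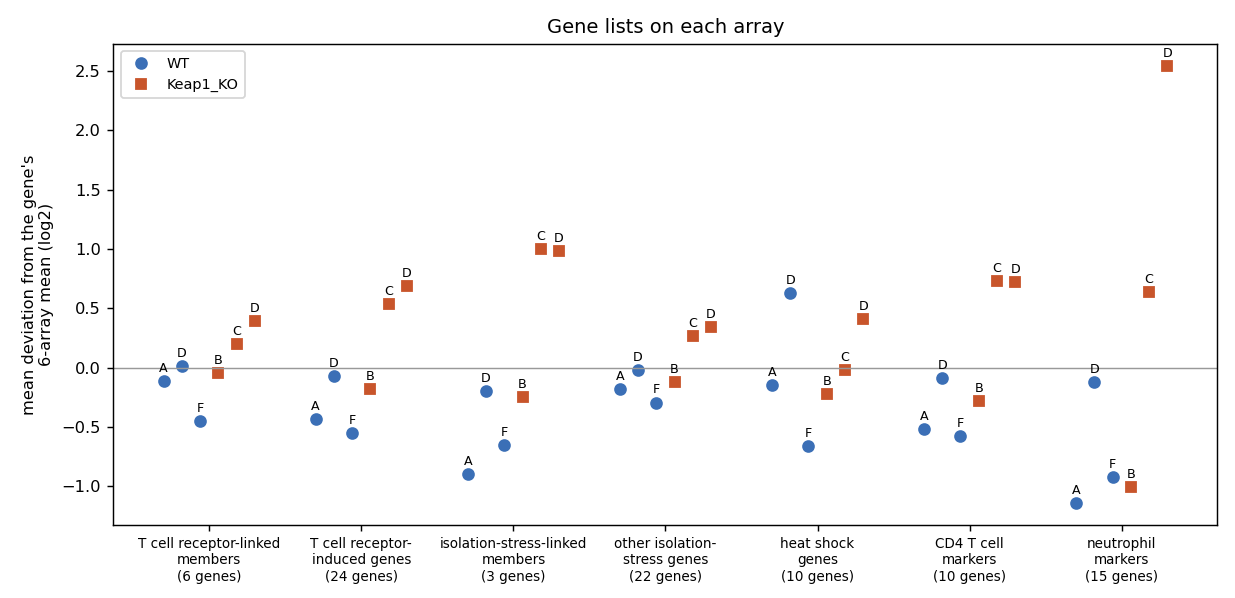
Mean deviation of gene lists from each gene's 6-array mean (log2) on each array, WT as blue circles and Keap1_KO as orange squares with replicate letters. Keap1_KO C and D stand above the WT arrays in every list except the heat shock genes. Keap1_KO B stays within the WT range in all 7 lists, and Keap1_KO D is highest for neutrophil markers (2.54).

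Differences within a family were compared on each array, as the log2 ratio of a pair of relatives, in 7 pairs. The ratio of Egr2 to Egr3 was 2.37, 2.71 and 2.47 in WT and 2.76, 3.66 and 3.61 in Keap1_KO, higher on each Keap1_KO array. The ratio of Egr1 to Egr2 was lower on each of them, with means of -2.41 ± 0.03 in WT and -2.93 ± 0.27 in Keap1_KO. The ratio of Zfp36 to Zfp36l2 was -1.51 ± 0.39 in WT and 0.16 ± 1.06 in Keap1_KO, again without overlap. These 3 pairs had an exact permutation p of 0.1, the smallest possible, and 0.233 after Benjamini-Hochberg adjustment over the 7 pairs. No pair could have passed the threshold with this number of arrays, so the test cannot decide whether the ratios differ. The ratios of Egr2 to Egr3 and of Egr1 to Egr2 share Egr2 and are not separate observations. Nr4a1 against Nr4a2 (0.67, exact permutation p = 0.2) and against Nr4a3 (0.80, exact permutation p = 0.3) overlapped between genotypes. Ratios within an array show unequal change and not which gene moved.

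Genes that T cell receptor signals induce had mostly higher means in Keap1_KO. Of 24 such genes, all tested, 19 had a higher mean, none passed over all genes, 3 lay higher on each Keap1_KO array (9.11% of all genes did), and the median difference was 0.48 against 0.06 over all genes. The largest were the costimulatory receptor genes Tnfrsf18 (2.35) and Tnfrsf4 (2.01), the factor gene Batf (2.08) and the coinhibitory receptor gene Pdcd1 (1.74), and in all of these Keap1_KO B lay below WT D. Tnfrsf18, for example, read 9.43, 10.81 and 9.22 in WT and 10.52, 12.65 and 13.36 in Keap1_KO, the same order of arrays as in Ier2. The median over these receptor-induced genes was 0.23 to 0.57 when single arrays were left out. Tnfrsf18, Tnfrsf4 and Il2ra, among others, are also on the Treg marker list below. Myc is also on the list of ZFP36 family targets, and the CD4 T cell marker list shares a gene too. These lists are therefore not separate observations.

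Genes that work with the EGR factors were mixed. Of 12 EGR cofactors and brakes linked to Egr2 and Egr3, 8 had a higher and 4 a lower mean (median 0.21). The adaptor gene Sh2d2a (1.43) had a higher mean with overlap. The stress-induced Ndrg1 (0.78) was higher on each Keap1_KO array, though barely on B (6.145 against 6.143 on WT F). The ubiquitin ligase genes Cblb (-0.56) and Itch (-0.46) were lower on each Keap1_KO array. None of these passed the limma adjusted threshold, and across the list 4 genes lay wholly above and 2 wholly below WT, against 9.11% and 4.96% of all genes.

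Feedback on the ERK and other MAP kinases, the route that Dusp1 acts on, had no common direction. Of 17 listed genes 15 were tested, 7 had a higher and 8 a lower mean, and the median was -0.07. Spred1 (-0.83), a Ras pathway inhibitor, and the Ras GTPase activator gene Rasa2 (-0.74) were lower on each Keap1_KO array. Dusp4 (0.68) had a higher mean with overlap, and Spred3 (-0.37) was lower throughout. Across the 15 tested, 1 gene lay wholly above and 3 wholly below WT, against 9.11% and 4.96% of all genes. The kinase and SRF inputs to early genes (20 of 24 tested) had 13 higher means and a median of 0.11. The largest there were Mapkapk2 (1.26) and Mapkapk3 (1.03), kinases downstream of p38 of which MAPKAPK2 phosphorylates the protein of Zfp36, then Map2k1 (0.96), which encodes the ERK kinase MEK1, and Mef2a (-0.65). None passed over all genes.

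Isolation-stress genes outside the members mostly had higher means, with a median below the differences of Ier2, Dusp1 and Zfp36. Of 30 listed 22 were tested, 18 had a higher mean and the median was 0.43, a value of 0.21 without Keap1_KO D. The largest were Gadd45b (1.501), the AP-1 gene Fos (0.89), the antiproliferative gene Btg1 (-0.88) and Klf2 (0.83), and none passed. Fos read 6.96, 6.29 and 6.62 in WT and 7.33, 7.99 and 7.22 in Keap1_KO, so unlike Ier2 it was higher on each Keap1_KO array. Of the 22 tested, 2 lay wholly above and 0 wholly below WT, near the shares of all genes (9.11% and 4.96%). Heat shock genes, the other usual sign of cell handling, did not follow the members. Of the 10 tested (13 listed), 6 had a higher mean and the median was 0.13. Their mean deviation was highest on WT D (0.63) and lowest on WT F (-0.66), with Keap1_KO B, C and D at -0.22, -0.02 and 0.41. Bag3 (1.20), a co-chaperone gene, was higher on each Keap1_KO array, while Hsph1 (-0.40), Hspd1 (-0.19) and Dnajb1 (0.17) overlapped between genotypes. Bag3 was the only 1 of the 10 tested heat shock genes without overlap, again near the share of all genes.

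Genes of the mRNA decay machinery around Zfp36 were mostly lower in mean, and the mRNAs it is known to target had no common direction. Of 18 genes of the ZFP36 family and decay partners, 15 were tested, 10 had a lower mean and the median was -0.38, with Cnot6 (-0.80) and Cnot8 (0.74), both of the CCR4-NOT deadenylase, Pan3 (-0.75) and Rc3h2 (-0.60) the largest. None passed, 0 lay wholly above WT (9.11% of all genes) and 2 wholly below (4.96% of all genes). Those 2, Cnot6l (-0.42) and Elavl1 (-0.33), were named after their values were seen. Of 20 mRNAs listed as targets of the family, 14 were tested, 9 had a higher mean and the median was 0.05. Tnf, the best known target of tristetraprolin, read 8.48 ± 0.38 in WT and 9.26 ± 0.59 in Keap1_KO (difference 0.79, limma adjusted p = 0.476), and Ifng 6.73 ± 0.47 and 5.92 ± 0.64 (difference -0.82, limma adjusted p = 0.479). Myc (0.63) and the kinase gene Pim1 (0.62) followed, and of these 4 only Pim1 had groups that did not overlap. Across the 14 targets tested, 1 lay wholly above and 0 wholly below WT, near the shares of all genes (9.11% and 4.96%).

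The genes most like each member were found by the root mean square difference between profiles over the 6 arrays, each centred on its own mean, among 11007 other protein-coding genes. Dusp1 lay closest to Cd3e (0.084), a chain of the T cell receptor complex, and to Frg1 (0.091). Nr4a1 lay closest to Psmb8 (0.056), an immunoproteasome subunit gene, and Efhd2 (0.060). Nr4a1 and Dusp1 were also near each other (0.133), with 45 genes closer to Nr4a1 and 17 closer to Dusp1.
Egr2 lay closest to Pnkd (0.039) and Uap1l1 (0.043), Ier2 to Chchd5 (0.116) and AB124611 (0.119), and Zfp36 to Arrdc1 (0.110) and Dnph1 (0.166). In all of these the 2 arrays with the highest values were Keap1_KO C and D. Egr1 lay closest to Mocs1 (0.031) and Gm12657 (0.037), and Egr3 to Cwc27 (0.036) and Rnf212 (0.036). Nr4a2 lay closest to Disp1 (0.062) and Dlgap5 (0.063), Nr4a3 to Mis12 (0.092) and Cdkn2aip (0.123), and Zfp36l2 to Taar8c (0.092) and Zc3hav1 (0.105). Closeness over 6 arrays is a description, and flat genes lie close to many others.

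**Figure D4:**
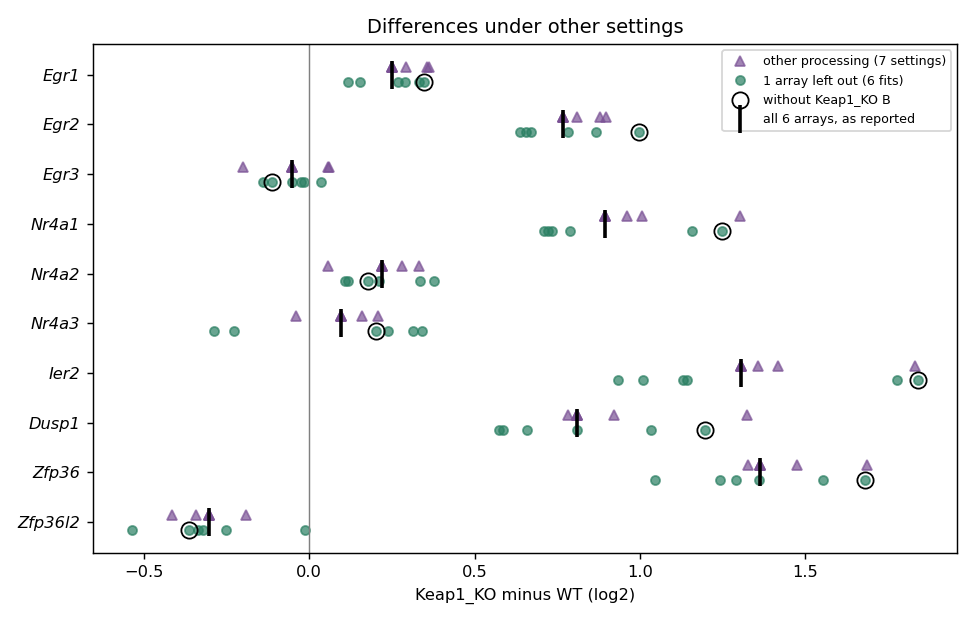
Keap1_KO minus WT (log2) of each gene as reported (black bar), with 1 array left out (green circles, the fit without Keap1_KO B ringed) and under 7 other processing settings (purple triangles). Egr2, Nr4a1, Ier2, Dusp1 and Zfp36 stay above 0 in all 13 settings, Egr3 and Nr4a3 fall on both sides of 0, and Zfp36l2 nears 0 (-0.012) when Keap1_KO C is left out.

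Markers of CD4 T cells and Treg cells were highest on Keap1_KO C and D, as the members with larger differences were. The same held for neutrophil, CD8 T cell, plasma cell, erythroid and platelet markers, but not for NK cell, B cell, macrophage or dendritic cell markers. All 10 CD4 T cell markers tested had higher means in Keap1_KO (median 0.88), with deviations of -0.51, -0.08 and -0.58 in WT and -0.28, 0.73 and 0.72 in Keap1_KO. As in Nr4a1, Dusp1 and Ier2, Keap1_KO B lay below WT D, and Keap1_KO C and D lay above all WT arrays. Of 13 Treg markers 10 had higher means (median 0.64), though Il2ra differed by -0.05. Neutrophil markers (15 tested, 14 higher, median 1.45) ranged from -1.14 to -0.12 in WT and from -1.01 to 2.54 in Keap1_KO, with Keap1_KO D highest, and 0 of 16 lay below the median on all 6 arrays. NK cell markers deviated by -0.45, 0.78 and -1.49 in WT and -0.14, -0.25 and 1.56 in Keap1_KO, and B cell markers by -0.31, 0.63 and -1.08 and by 0.37, -0.51 and 0.92. In both of these Keap1_KO C was the lowest Keap1_KO array, below WT D. Macrophage and monocyte markers, of which 3 of 13 were below the median on all 6 arrays, ranged from -0.82 to 0.38 in WT and from -0.12 to 0.77 in Keap1_KO. Plasma cell markers (-0.56 to 0.15 and -0.58 to 1.04), dendritic cell markers (-0.47 to 0.21 and -0.09 to 0.43, with Keap1_KO C at -0.01), CD8 T cell markers (-1.07 to 0.37 and -0.74 to 0.96), erythroid markers (-0.32 to 0.07 and 0.04 to 0.25) and platelet markers (-0.32 to 0.08 and -0.11 to 0.23) completed the lists. The part of these cells in the members' values was not tested, and in bulk RNA fewer cells of a type and less RNA per cell cannot be told apart. Without Keap1_KO D, where neutrophil markers were highest, the differences were 0.67 for Egr2, 0.72 for Nr4a1 and 0.93 for Ier2. Those of Dusp1 and Zfp36 were 0.57 and 1.36, and none of these members passed (limma adjusted p = 0.897 for each). Keap1_KO C, which stays in that fit, also had neutrophil markers above all WT arrays (0.64), so the fit cannot separate their part.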

How the data were processed

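Each genotype had 3 arrays. The authors deposited a log2 value for each transcript cluster on each array. The submitters' processing notes name RMA (background correction, quantile normalization and probe summary), Affymetrix Expression Console and Transcriptome Analysis Console, while versions, roles and the genome build are not given in the sources used here. Per the labels' protocols, 40 ng of total RNA was amplified into biotin-labelled cDNA. The design text names a Mouse Gene array, while the identifiers match the annotation of a different Affymetrix mouse array, through which genes were named. Values reached 19.9, above the 16 of a 16-bit scanner, so an unstated rescaling lies in between and folds refer to the scale as deposited. Array medians lay between 5.16 and 5.43. The number of arrays limits the precision.

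Of 65528 clusters, 30354 had 1 symbol, 2118 several and 33056 none. Symbols were looked up through Entrez identifiers for 22586 clusters, and 824 of these symbols were replaced. A gene was tested when its cluster reached the array median on at least 3 arrays, and its brightest cluster was used. Limma 3.58.1 (lmFit, eBayes, two-sided) in R 4.3.3 gave p-values, adjusted by Benjamini-Hochberg over 16805 genes. Single values were also tested by an exact two-sided permutation test. The procedure was tested on simulated data with independent noise and changes larger than those of the members. That test therefore does not cover differences of the members' size. Promoter sequences came from RefSeq (GRCm38.p6). The members and lists were chosen with earlier results of these data known. From each list the 4 tested genes with the largest absolute difference were named, with Il2ra, Cd4, Keap1 and, for each member, the 2 genes most like it. Alternatives were the filter, array scale, array weights, variance prior, choice of cluster and leaving out each array.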

Additional observations from a re-analysis of the deposited data

How the results depend on the processing

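Under 13 alternatives, 118 of 130 member values kept their direction and their side of the threshold. With limma array weights the count of genes past an adjusted p of 0.05 went from 0 (1731 at an unadjusted p under 0.05) to 1878 and that of members from 0 to 5, and Nr4a3 turned to -0.039. With a trended, robust variance prior 1 gene passed. When single arrays were left out, the count of genes ranged from 0 to 575 and that of members from 0 to 1, and both highest counts came without Keap1_KO B. Egr3 turned to 0.057 after repeated quantile normalization and to 0.061 with centred arrays, and ranged from -0.14 to 0.037 when single arrays were left out, above 0 without WT A. Nr4a3 ranged from -0.29 to 0.34 in those fits. The median ranged from 0.17 to 0.35 for receptor-linked and from 0.93 to 1.69 for isolation-linked members. The cause of these shifts was not tested. No paired analysis was possible because the genotypes share only the replicate letter D. Dim genes such as Keap1, below the median on most arrays, are limited by signal over background.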
